A study of Mus musculus with 5 samples.

Results

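Of the 9907 BRG1 peaks that the authors listed for oxLDL-treated wild-type macrophages, 3878 (39.1%) lay inside protein-coding genes and away from gene ends. A peak was taken as an in-gene peak when it was narrower than 1000 bp and its summit lay within an mm10 RefSeq protein-coding gene, more than 1 kb from both ends of every protein-coding gene. Peaks before 3.1 Mb of chromosome 9 were to be left out, and 0 in-gene peaks lay there. The 4 BRG1 peak lists of the series held 14951 peaks in all. The same rule gave 1734 in-gene peaks in oxLDL-treated knockout cells, 85 in untreated wild-type cells and 37 in untreated knockout cells.

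The cells were primary macrophages grown from mouse bone marrow. Chromatin was precipitated with an antibody against BRG1 from wild-type (WT) and Baf60a knockout (KO) cells, each without treatment or with oxidised low-density lipoprotein (oxLDL WT and oxLDL KO). There was 1 library in each of these 4 groups. Differences between libraries thus have no replicate check, and p-values were not computed. The kind of knockout allele, the number, sex and age of the mice, and the dose and duration of oxLDL are not stated in the sources used here. Intervals are 95% intervals (Wilson for shares, exact Poisson for densities) and cover counting error only.

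BRG1, the product of Smarca4, is the motor ATPase of SWI/SNF complexes, which slide and evict nucleosomes and so open DNA to transcription factors. BAF60a, the product of Smarcd1, is a non-catalytic subunit that links these complexes to transcription factors. Enhancers are stretches of open DNA that act on genes at a distance, and many of them lie in introns. Macrophage enhancers are marked by the lineage factor PU.1 together with partners such as C/EBP, AP-1 and RUNX proteins. Uptake of oxLDL by scavenger receptors loads macrophages with cholesterol, as in the foam cells of the artery wall.

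A peak list holds no read totals. The lowest local background of a list was taken as a rough measure of relative depth, which could not be checked here. It was 3.76 fragments in oxLDL WT, 3.42 in oxLDL KO, 2.7 in WT and 3.84 in KO. A median in-gene peak of oxLDL WT rested on a pileup of 17 fragments at its summit (Poisson interval 9.9 to 27.2), and the lowest pileup was 12. Neither Smarcd1 nor the 1 kb around it held a peak in any of the 4 lists, so these lists do not show whether the gene was deleted. Of 14 macrophage markers, 12 carried an oxLDL WT peak in their interior or at an end, and 5 held an in-gene peak, Spi1 and Csf1r among them. In-gene peaks were found in 2 of 11 lymphocyte markers (Cd4 and Ms4a1) and in 0 of 8 each for neutrophils, stromal cells, and the erythroid and megakaryocyte lineage. With gene ends included, these counts were 2 of 11, 1 of 8, 0 of 8 and 1 of 8.

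Sequence was at hand only around annotated transcription starts, in a RefSeq promoter table on GRCm38.p6, the assembly of mm10. Many genes have more than 1 start, and 6458 annotated starts lay in gene interiors, counted as different windows of 300 bases. Of these, 258 (4%) lay under an in-gene peak. The windows below are the 150 bases before such starts, chosen because the printed stretch lies wholly inside a peak of the gene's own internal start. The first 4 have the highest fold enrichment among peaks that an oxLDL KO peak overlapped, and the last 4 among peaks that it did not. Capitals mark letters that match a searched motif on either strand. The general promoter motifs searched were the GC box (GGGCGG), the CCAAT box (spelled as its name) and the TATA box (TATAAA). The E-box was searched as CACGTG and the AP-1 site as TGANTCA. The C/EBP site was searched as TTGCNNAA, the PU.1 site as GAGGAAGT and the general ETS site as CCGGAAGT.
Akna: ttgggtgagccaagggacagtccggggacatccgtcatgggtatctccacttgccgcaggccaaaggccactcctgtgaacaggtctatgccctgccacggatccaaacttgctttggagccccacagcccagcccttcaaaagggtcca
Arhgap22: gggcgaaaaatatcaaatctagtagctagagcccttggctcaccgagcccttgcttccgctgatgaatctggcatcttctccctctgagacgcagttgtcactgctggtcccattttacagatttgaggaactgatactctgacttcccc
Rps6ka1: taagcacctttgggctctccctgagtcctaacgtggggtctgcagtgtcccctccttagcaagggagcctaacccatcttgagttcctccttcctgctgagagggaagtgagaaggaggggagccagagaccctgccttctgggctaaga
N4bp2: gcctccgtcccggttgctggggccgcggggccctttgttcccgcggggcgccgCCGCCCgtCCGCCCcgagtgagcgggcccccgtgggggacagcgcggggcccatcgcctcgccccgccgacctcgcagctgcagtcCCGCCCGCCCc
Sh3tc1: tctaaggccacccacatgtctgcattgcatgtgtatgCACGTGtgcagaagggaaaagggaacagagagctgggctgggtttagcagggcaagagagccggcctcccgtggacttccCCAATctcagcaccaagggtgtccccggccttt
Csf3r: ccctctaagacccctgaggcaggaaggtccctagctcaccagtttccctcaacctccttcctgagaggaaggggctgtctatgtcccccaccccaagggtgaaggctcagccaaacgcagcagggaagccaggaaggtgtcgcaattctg
Bmf: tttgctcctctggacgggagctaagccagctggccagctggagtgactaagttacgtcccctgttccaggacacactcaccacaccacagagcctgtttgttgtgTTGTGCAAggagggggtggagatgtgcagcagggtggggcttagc
Gpr146: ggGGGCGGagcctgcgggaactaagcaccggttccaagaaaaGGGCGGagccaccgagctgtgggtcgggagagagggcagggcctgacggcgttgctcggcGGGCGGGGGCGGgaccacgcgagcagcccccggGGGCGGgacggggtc

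The Akna window lies at chr4:63402604-63402753 on the minus strand, under a peak of fold enrichment 5.46. Akna encodes an AT-hook protein. The Arhgap22 window, before a start of a gene for a Rac-directed GTPase-activating protein, is chr14:33216673-33216822 on the plus strand (fold enrichment 5.25). Rps6ka1, the gene of the ribosomal S6 kinase RSK1, has its window at chr4:133874732-133874881 on the minus strand (5.25). N4bp2 has chr5:65763371-65763520 on the plus strand (4.59). Of the 4 without an overlapping oxLDL KO peak, Sh3tc1 has chr5:35729277-35729426 on the minus strand (5.46) and Csf3r, the receptor gene for granulocyte colony-stimulating factor, chr4:126024509-126024658 on the plus strand (5.13). Bmf, a BH3-only cell death gene, has chr2:118547600-118547749 on the minus strand (4.83), and Gpr146 has chr5:139380489-139380638 on the plus strand (4.64). The N4bp2 and Gpr146 windows hold 4 and 5 GC boxes. No searched motif was found in the Akna, Arhgap22, Rps6ka1 and Csf3r windows, which says only that these letters are not in the bases shown.

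Windows under an in-gene peak were richer in G and C than the other internal starts. Their median GC content was 64.2% (quartiles 56.7 and 71.7), against 51.7% (45.7 and 58.7) for the 6200 internal starts not under an in-gene peak and 53% for all 31365 starts of the table. A GC box was found in 57.4% of the 258 (interval 51.3 to 63.2), in 27.3% of the 6200 (26.2 to 28.4) and in 36% of all starts. The PU.1 letters were found in 5.43% (3.26 to 8.9), 2.73% (2.35 to 3.16) and 3.25%. The CCAAT box was in 27.5%, 33.7% and 37.3%, and the TATA box in 7.36%, 12.7% and 13.6%. The AP-1 letters were in 8.53% (5.7 to 12.6), 8.1% and 7.85%, the C/EBP letters in 9.69% (6.65 to 13.9), 11% and 10.9%, and the E-box in 8.14% (5.39 to 12.1), 5.6% and 7.14%. The ETS letters were in 3.49% (1.85 to 6.5), 2.16% and 3.95%. The intervals of the first 2 sets were far apart for the GC box. They were just apart for the PU.1 letters, found in 14 of the 258, and for the TATA box (4.76 to 11.2 against 11.9 to 13.6). The intervals treat windows as independent, but the 258 starts lay under 226 distinct in-gene peaks. Windows of near starts can share bases, so the intervals are too narrow. Several motifs were searched, and no difference is concluded for the PU.1 letters or the TATA box. A match is a description of the letters and not evidence of binding.

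In-gene peaks were modest in height, with a few tall exceptions. Fold enrichment, the authors' ratio of pileup to local background at the summit, ranged from 1.44 to 17.6 with a median of 3.72 (quartiles 3.34 and 4.2). Peaks at gene ends had a median of 3.63 and intergenic peaks of 3.75, so the classes had similar heights. The median width was 350 bp. A share of 66% of in-gene peaks sat at the lowest background of the list, and 7 had a background over 5 times that level. On the edges of the rule, the widest in-gene peak was 999 bp, the narrowest one left out was 1000 bp, and 261 in-gene peaks of 1000 bp or more were left out. The 98 in-gene peaks up to 100 bp beyond the 1 kb margin and the 102 gene-end peaks up to 100 bp within it, inside a gene, both had a median fold enrichment of 3.57.

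Gene interiors held in-gene peaks at 4.12 per Mb. Interiors by this rule cover 942 Mb, 39.2% of the 2403 Mb spanned, and in-gene peaks made up 41.5% of the peaks under 1000 bp (interval 40.5 to 42.5). Gene-end zones held 3022 peaks at 40.6 per Mb, and the remaining intergenic sequence held 2441 at 1.76 per Mb. In oxLDL KO, in-gene peaks lay at 1.84 per Mb and made up 37.8% of peaks under 1000 bp (36.4 to 39.2).

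The in-gene peaks fell in 2206 genes, 10.1% of the 21900 protein-coding genes in the table. All peaks lay on chromosomes 1 to 19, which hold 20665 of these genes, 10.7% of them with an in-gene peak. Of these genes, 1377 held a single in-gene peak and 829 held at least 2, and the 829 together held 2533 peaks. At least 3 were found in 405 genes, at least 5 in 127 and at least 10 in 6. An even spread at the overall density, given only as a description, would put at least 1 peak in 2684 genes, at least 2 in 697 and at least 5 in 68.2. The observed peaks thus lay in fewer genes, with more genes of several peaks. Neighbouring in-gene peaks of a gene were close together: the median of 1742 gaps between summits was 4.65 kb (quartiles 1.12 and 18.2), and 35.7% of gaps were under 2 kb. With peaks within 2 kb of each other counted once, 626 genes still held at least 2.

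Genes with in-gene peaks were long, but density fell with length. Their median length was 52.1 kb (quartiles 23.5 and 111), against 17.1 kb for all protein-coding genes and 21.6 kb for the 18253 with an interior. It was 42.8 kb for genes with 1 in-gene peak, 56.6 kb with 2, 69.1 kb with 3, 95.7 kb with 4 and 143 kb with at least 5. The share of genes with an in-gene peak went from 2.21% of genes under 10 kb (interval 1.89 to 2.57) to 9.17%, 17.4% and 28.9% in the classes 10 to 30, 30 to 100 and 100 to 300 kb. In genes of 300 kb and over it was 22.1% (18.8 to 25.9), lower than in the class before. Per Mb of interior the order was reversed, with 11.7, 7.62, 5.77, 4.24 and 1.05 in-gene peaks per Mb from the shortest class to the longest. The oxLDL KO list gave the same order at lower values (5.38, 3.62, 2.7, 1.76 and 0.414 per Mb). The share overlapped by oxLDL KO ran from 20.3% to 24.5% over the 5 length classes, and the intervals of any 2 classes overlapped.

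**Figure D1:**
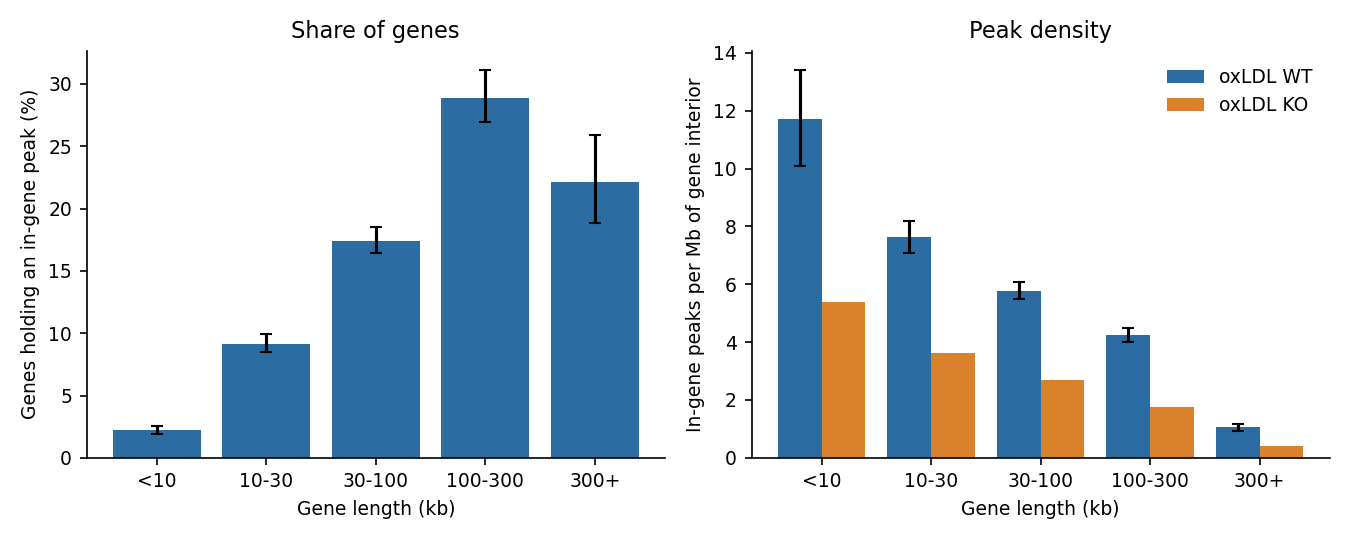
In-gene BRG1 peaks by gene length class. Left, the percentage of protein-coding genes that hold an oxLDL WT in-gene peak, highest at 28.9% in genes of 100 to 300 kb. Right, in-gene peaks per Mb of gene interior in oxLDL WT (blue) and oxLDL KO (orange), falling from 11.7 to 1.05 and from 5.38 to 0.414. Bars are values of 1 library each, and error bars on the blue bars are 95% counting intervals.

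The longest genes of chromosomes 1 to 19 held very few. Of the 50 longest genes with an interior, from 1037 to 2271 kb, 5 held an in-gene peak, and their 68 Mb of interior held 10 peaks (0.147 per Mb). The 5 longest genes without an in-gene peak were Ptprd (2271 kb), Cntnap2 (2241 kb), Lsamp (2197 kb), Lrp1b (2058 kb) and Dlg2 (1973 kb). Ptprd encodes a receptor phosphatase, Cntnap2 and Lsamp neuronal adhesion proteins, and Dlg2 a synaptic scaffold. None of these 5 had an in-gene peak in oxLDL KO or a gene-end peak in either list.

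Along a gene, in-gene peaks were densest behind the 5′ end. Strand was known for 16457 genes. From 1 to 5 kb behind the 5′ end the density was 17.2 per Mb (interval 16.1 to 18.4), and it was 5.78, 4.16, 3.53 and 1.49 per Mb at 5 to 20, 20 to 50, 50 to 100 and over 100 kb. Before the 3′ end the nearest 1 to 5 kb held 3.77 per Mb (3.26 to 4.33), and the next bins 5.2, 5.98, 5.49 and 2.47. Each bin pools the genes long enough to reach it, so the far bins hold long genes only. Genes of 300 kb and over had 1.05 per Mb as a class. The fall with distance was not separated from gene length. With the surroundings of internal starts left out, the first 5′ bin had 13.3 per Mb and the first 3′ bin 3.44. The share overlapped by oxLDL KO was 26.9% (24.1 to 29.9) in the first 5′ bin and 18.1% (14.6 to 22.1) beyond 100 kb.

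**Figure D2:**
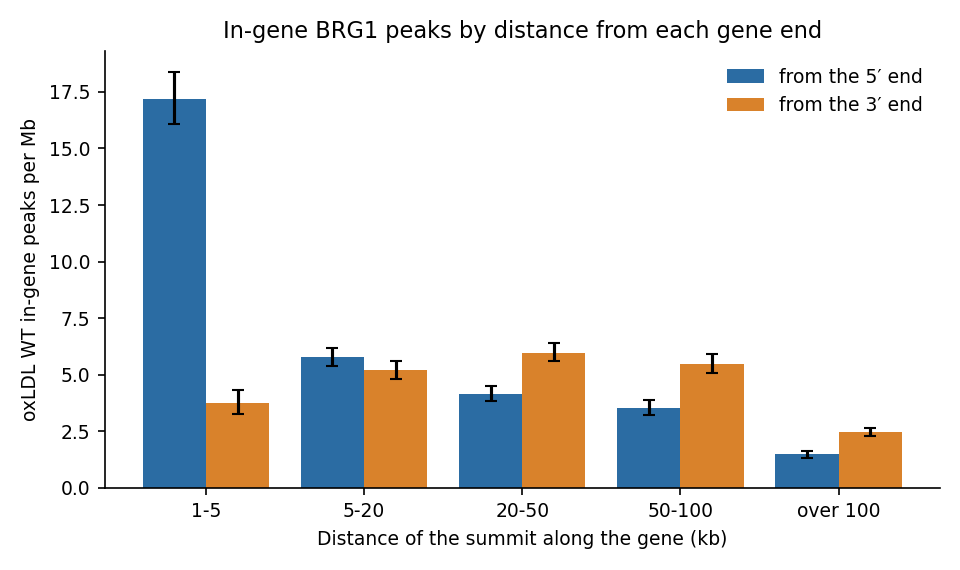
Density of oxLDL WT in-gene peaks (peaks per Mb of gene interior) by distance of the summit from the 5′ end (blue) and the 3′ end (orange) of the gene, in kb. The first 5′ bin stands at 17.2 per Mb and the first 3′ bin at 3.77. The far bins hold long genes only. Error bars are 95% Poisson intervals for 1 library.

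In-gene peaks were denser around annotated starts inside genes. On the chromosomes of the promoter table, which has no chromosome 18, 502 of 3775 in-gene peaks (13.3%, interval 12.3 to 14.4) had their summit within 1 kb of an internal start, a zone that covers 1.18% of the interior. The density was 46.8 per Mb there and 3.64 per Mb in the rest, a ratio of 12.9 (11.7 to 14.1). The gene-end density was 40.6 per Mb, but it takes in both the 5′ and the 3′ ends of genes. It is therefore not a like value for gene starts. For 428 of the 502 the nearest such start belonged to the gene that holds the peak, and for 74 to a non-coding gene. The other 3273 in-gene peaks had no annotated start of this table within 1 kb.

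Overlap with the oxLDL KO list by at least 1 bp was found for 871 of the 3878 in-gene peaks, 22.5% (interval 21.2 to 23.8). The summits need not coincide: with a rule of summits at most 100 bp apart the share was 12.4% (11.4 to 13.5). A paired oxLDL KO value given below is that of the tallest overlapping peak, whose summit can lie elsewhere. An oxLDL KO peak can also overlap several in-gene peaks, and each of them is then counted. Of all oxLDL WT peaks 27.3% were overlapped, a share that also takes in the peaks of 1000 bp or more. Peaks at gene ends were overlapped in 32.4% (30.8 to 34.1) and intergenic peaks in 19.2% (17.7 to 20.8). Taller peaks were overlapped more often. By quintile of fold enrichment within the oxLDL WT list, the in-gene share was 12.5%, 15.8%, 20.1%, 25% and 42.1%. In gene-end peaks it was 21.3%, 28.4%, 30.3%, 39.5% and 48.6%, and in intergenic peaks 8.4%, 13.4%, 13.5%, 22.1% and 42.2%. Of in-gene peaks with a pileup of at most 15 fragments, 10.2% (8.57 to 12.2) were overlapped, and of those with at least 25 fragments 49.3% (43.3 to 55.2).

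**Figure D3:**
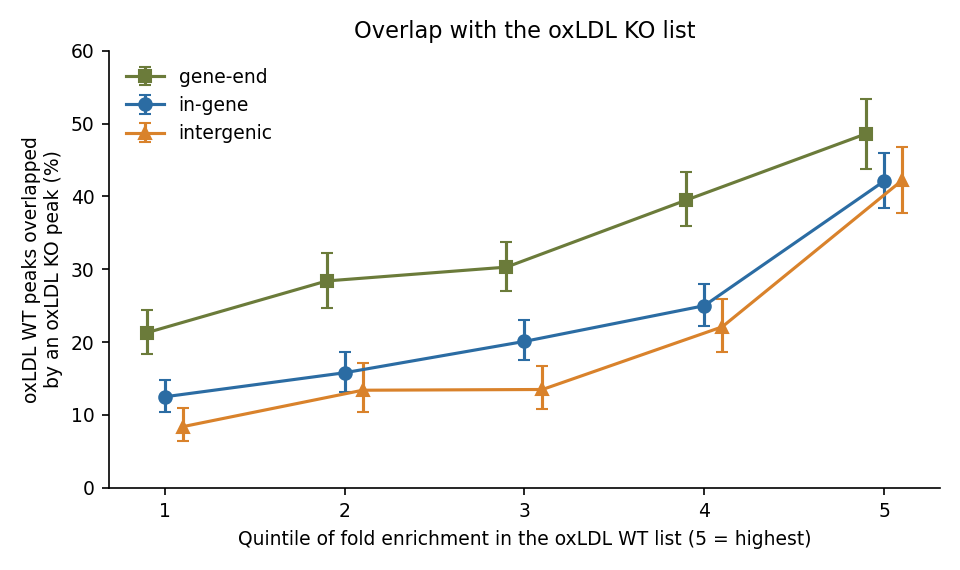
Percentage of oxLDL WT peaks under 1000 bp overlapped by an oxLDL KO peak, by quintile of fold enrichment in the oxLDL WT list (5 is the highest), for gene-end (green squares), in-gene (blue circles) and intergenic (orange triangles) peaks. In-gene peaks go from 12.5% to 42.1% and lie below gene-end peaks in all 5 quintiles; error bars are Wilson 95% intervals.

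Pooled across the quintiles (Mantel-Haenszel), the odds of overlap of in-gene peaks were 0.566 times those of gene-end peaks (interval 0.507 to 0.632) and 1.24 times those of intergenic peaks (1.09 to 1.42). Both classes come from the same 2 libraries, and peaks are not replicates. With a −log10 q of at least 5 in both lists, the odds ratios were 0.829 (0.616 to 1.11) and 0.833 (0.624 to 1.11), so neither interval excluded 1 and the second changed direction. The odds ratio against intergenic peaks also had an interval that included 1 with a margin of 5 kb (1.09, 0.933 to 1.27) and with summits at most 100 bp apart (1.11, 0.941 to 1.3). In-gene peaks at internal starts were overlapped in 33.7% (29.7 to 37.9) and those away from them in 20.6% (19.2 to 22), an odds ratio of 2.04 (1.66 to 2.51) at like fold enrichment. Against gene-end peaks, those at internal starts had an odds ratio of 1.03 (0.845 to 1.27). At the stricter q limit the first of these was 0.786 (0.41 to 1.51).

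Seen from the knockout list, 1039 of its 1734 in-gene peaks (59.9%, interval 57.6 to 62.2) were overlapped by an oxLDL WT peak. Of all oxLDL KO peaks of any width it was 59.6%. The lists are of unequal length, 9907 and 4668 peaks. Of the 3007 in-gene peaks of oxLDL WT without overlap, 305 (10.1%, 9.11 to 11.3) had an oxLDL KO summit within 1 kb and 1074 (35.7%) within 10 kb. Not listed in the oxLDL KO file therefore does not mean that BRG1 was absent from the site, since a peak can lie just under the caller's limit.

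A gene is a larger target than a peak, and sharing by gene moves with the number of peaks and the length of the gene. Of the 2206 genes with an in-gene peak in oxLDL WT, 929 (42.1%, interval 40.1 to 44.2) also held an in-gene peak in oxLDL KO, and these were 76.5% of the 1214 such genes in oxLDL KO (5.54% of all protein-coding genes). The share was 29.3% for genes with 1 in-gene peak, 53.3% with 2, 69.4% with 3 or 4 and 84.3% (76.9 to 89.6) with at least 5. At like length, in genes of 30 to 100 kb, it was 30.5% (26.7 to 34.6) with 1, 54.1% (46.6 to 61.4) with 2 and 74.7% (67.4 to 80.8) with at least 3. The share of single peaks overlapped moved far less over the same steps, from 20.4% (18.3 to 22.6) to 21.6%, 25% and 23.8% (20.9 to 26.9). Among the 127 genes with at least 5 in-gene peaks, 0 had all of them overlapped, and 30 (23.6%, 17.1 to 31.7) had none overlapped. Over all 2206 genes, 700 (31.7%, 29.8 to 33.7) had at least 1 overlapped.

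Gene-end peaks were more common at genes with in-gene peaks. At 840 of the 2206 genes (38.1%, interval 36.1 to 40.1) there was also a gene-end peak in oxLDL WT, against 12.3% of the other genes and 14.9% of all protein-coding genes. The difference was present in each length class. It was 42.6% against 8.12% under 10 kb, 37.5% against 14.4% at 10 to 30 kb, 39% against 20.1% at 30 to 100 kb, 40.6% against 16.4% at 100 to 300 kb and 16.9% against 4.1% at 300 kb and over. The other 1366 genes held in-gene peaks without a gene-end peak of any width.

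Zmiz1, which encodes a PIAS-like transcriptional coactivator, held the most in-gene peaks, 16 in 209 kb (chromosome 14, 25457875 to 25666743). The summits of 14 of them fell within 50 kb. From the 5′ end onward, the first 8 had a fold enrichment of 4.03, 4.41, 3.35, 5.04, 3.57, 6.09, 3.57 and 3.78, at 1.17, 4.08, 7.07, 9.63, 10.3, 12.7, 16.9 and 23.4 kb. The next 8 had 3.07, 3.07, 4.2, 3.36, 4.62, 3.15, 3.2 and 3.26, with the summit of the last at 25608182, 2.55 kb from the end of Gm45915. The oxLDL KO list overlapped 5, those of 4.41 (4.98 in oxLDL KO), 6.09 (3.12), 3.57 at 16.9 kb (3.85), 4.2 (4.3) and 3.26 (3.32). The tallest was also the only 1 of the 16 overlapped in the untreated WT list. No gene-end peak was listed at Zmiz1 in either oxLDL list. The oxLDL KO peaks over those of 4.41 and 3.26 had summits at 25461348 and 25607183, against 25461954 and 25608182 in oxLDL WT.

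Tspan14, a gene of a tetraspanin that partners the protease ADAM10, held 12 in 60.6 kb (chromosome 14, 40906427 to 40967073), or 20.5 per 100 kb of interior. Along the chromosome their fold enrichments were 3.02, 3.99, 3.57, 3.78, 3.99, 3.36, 3.57, 4.49, 3.84, 3.15, 3.9 and 3.62. All lay in a narrow range, and the 2 overlapped by oxLDL KO, the 3.99 at summit 40931110 and the 3.15 at 40956220, both met a peak of 4.53. The oxLDL KO list had 5 in-gene peaks in Tspan14 by the same rule.

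Foxp1, which encodes a forkhead transcription factor of the monocyte and lymphoid lineages, is longer, 597 kb (chromosome 6, 98925342 to 99522746), and its 11 in-gene peaks were spread over 523 kb. In order along the chromosome they had 2.94, 3.78, 4.41, 3.8, 3.36, 6.72, 3.57, 3.57, 5.67, 2.73 and 5.04. The oxLDL KO list overlapped 4, those at summits 99028672 (3.8 and 3.62 in oxLDL KO), 99344232 (6.72 and 4.53), 99388281 (3.57 and 4.07) and 99520676 (5.04 and 4.07). Foxp1 had 3 in-gene peaks near internal starts, the first and last of these 4 among them.

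Vps13d, a gene of a lipid transfer protein needed for mitochondrial clearance, held 11 in 324 kb (chromosome 4, 144871045 to 145195037). Dhrs3, which encodes a retinal reductase, lies within it, and 4 of the 11 fell inside both genes, with fold enrichments of 4.38, 4.22, 3.24 and 4.17. The other 7 had 3.57, 2.64, 3.78, 3.75, 5.04, 4.82 and 3.57. The 2 overlapped by oxLDL KO were those of 5.04 (5.2 in oxLDL KO) and 4.82 (3.55), and neither lay in Dhrs3.

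Fli1, an ETS factor gene of the blood lineages, tied with Ubac2 at 10 and had the taller peak. Its 10 lay in 121 kb (chromosome 9, 32422204 to 32543432), all within 39.3 kb. Their fold enrichments along the chromosome were 3.15, 6.51, 3.78, 4.41, 3.78, 3.64, 4.2, 4.2, 3.78 and 4.5. The oxLDL KO list overlapped 5 of the 10, at 3.15 (3.17 in oxLDL KO), 4.41 (4.3), 3.78 at summit 32509101 (4.07), 4.2 at 32517249 (3.17) and 4.5 (2.64). The tallest, 6.51 at 32501416, was not overlapped. The oxLDL KO peaks over the 5 had summits at 32500590, 32507992, 32509757, 32517297 and 32540554. The oxLDL WT summits of the 5 were at 32500761, 32508633, 32509101, 32517249 and 32540103.

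**Figure D4:**
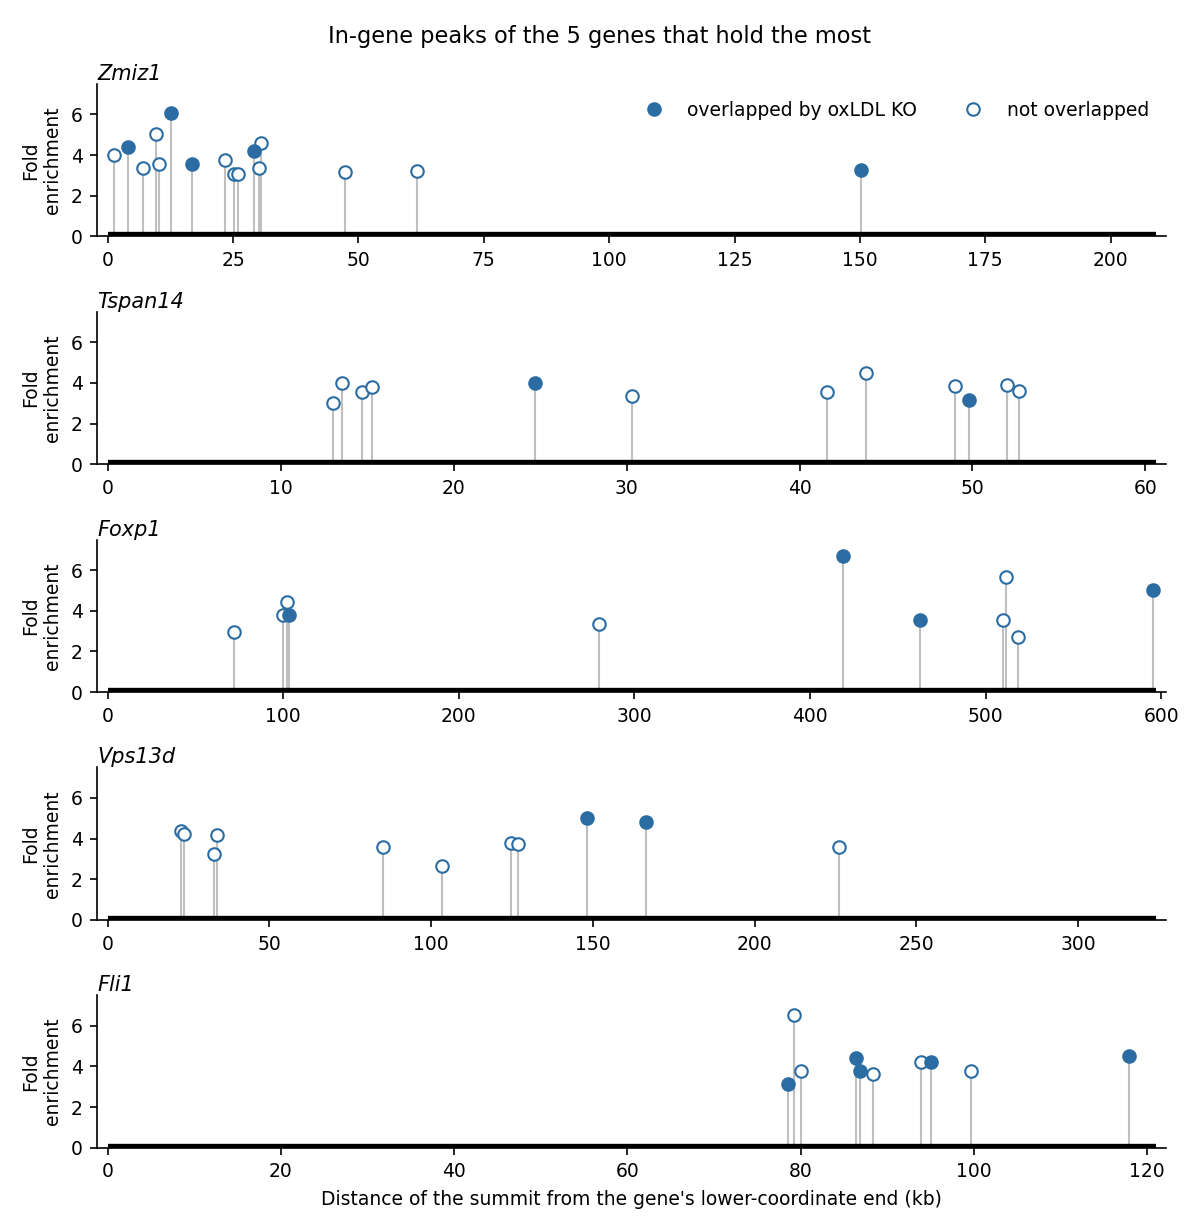
In-gene peaks of the 5 genes that held the most, with Fli1 placed before Ubac2 (10 each) by its taller peak. Each point is the summit of an oxLDL WT peak, placed by its distance in kb from the gene's lower-coordinate end (black bar, the gene) and by fold enrichment; filled points were overlapped by an oxLDL KO peak and open points were not. The peaks of Zmiz1 and Fli1 lie close together, with 14 of 16 and 10 of 10 summits within 50 kb, and those of Foxp1 are spread over 523 kb.

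Ordered by number, with ties broken by the tallest peak, the next 10 genes were Ubac2 with 10, Dock10, Rin2, Sgms1 and Slc43a2 with 9 each, and Tg, Gas7, Hpcal1, Dnmt3a and Runx1 with 8 each, the first 5 of the 11 genes that held exactly 8. Over all genes with at least 5 in-gene peaks, 23.8% of the peaks (20.9 to 26.9) were overlapped. With 8 to 10 peaks per gene, most of the counts below cannot be told from that share. Dnmt3a, the gene of a de novo DNA methyltransferase, had 7 of 8 overlapped by oxLDL KO, and 10 in-gene oxLDL KO peaks. The 7 had fold enrichments of 2.8 to 6.26 (up to 5.66 in oxLDL KO). Those at summits 3807204 and 3808233 were overlapped by the same oxLDL KO peak, with its summit at 3807317. Ubac2 had 1 of 10, Rin2, which encodes a Rab5 exchange factor, 1 of 9, and Hpcal1 1 of 8. Dock10 (a guanine nucleotide exchange factor), Sgms1 (sphingomyelin synthase) and Slc43a2 (an amino acid transporter) had 3 of 9 each. In Slc43a2 the peaks at summits 75533354 and 75533965 shared the same oxLDL KO peak, with its summit at 75533516. In Dock10 the tallest peak, 6.72 at summit 80716003 on chromosome 1, was not overlapped, and the 3 that were had 4.41, 3.99 and 4.2. The oxLDL KO peak over the last had its summit at 80758360, within 1 kb of the gene end at 80758765.

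Some of these peaks lie in a gene other than the one whose end is nearest. That held for 276 of the 3878 (7.12%, interval 6.35 to 7.97), and 60 in-gene peaks (1.55%) were held by more than 1 gene. Tg encodes thyroglobulin, the thyroid hormone precursor, and 5 of its 8 in-gene peaks also lay in Sla, the gene of a Src-like adaptor of blood cells, on chromosome 15. The tallest of these stood at 8.82, and the oxLDL KO peak over it at 5.43. In Ubac2, 3 of the 10 also lay in Gpr183, the gene of an oxysterol receptor. For 6 of the 7 peaks of Vps13d outside Dhrs3 the nearest end was still that of Dhrs3, for 5 of 8 in Gas7 that of Glp2r, and for 5 of the 7 in Elf1 that of Wbp4. A gene name here gives the position of a peak, not the gene on which it may act.

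The densest genes, among those with at least 3 in-gene peaks, were short. Ptgir, the prostacyclin receptor gene, held 3 in 4.42 kb (124 per 100 kb of interior), and Mpeg1, which encodes the macrophage pore-forming protein perforin-2, 3 in 4.52 kb (119 per 100 kb). They were followed by Cd300c2, Ppp1r18, Cd93, Slc35e4, Tuba1c, Plekho1, Akip1 and Klf6, from 76.5 to 43.5 per 100 kb. In Ptgir the 3 peaks had 3.55, 3.78 and 5.88, and the last 2 were overlapped in oxLDL KO (4.07 and 4.3). In Mpeg1 they had 2.81, 2.94 and 4.03, and none was overlapped. Ppp1r18, which encodes a phosphatase subunit that binds actin, held 6 in 10 kb, with 3.13 to 4.83, and 1 was overlapped (3.78 and 3.54 in oxLDL KO). At least 1 in-gene peak was overlapped in 4 of these 10 genes. The 31.7% over all genes with an in-gene peak is not a like share, since 1377 of those genes held a single peak. Of the 127 genes with at least 5 in-gene peaks, 23.6% had none overlapped. That is not a like share either, since most of these 10 genes held 3 or 4. The share with none overlapped was not computed for genes with 3 or 4 in-gene peaks.

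The tallest in-gene peak lay in Synpr, the gene of the synaptic vesicle protein synaptoporin, at chr14:13361390-13362202. Its fold enrichment was 17.6 on a pileup of 83 fragments, that of the oxLDL KO peak over it 6.79 on 29, and it was also overlapped in the untreated WT list. The next tallest among the overlapped lay in Rab14, a gene of endosomal traffic (9.03 and 4.75 in oxLDL KO), Slc15a4, the gene of an endolysosomal transporter (9.03 and 3.39), Tg and Sla (8.82 and 5.43), and F830045P16Rik (8.61 and 6.11). The peak in Cpt1a, which encodes the carnitine palmitoyltransferase that admits fatty acids to mitochondria, had 8.55 and 7.24 at chr19:3377201-3377501, 129 bp from a start of the non-coding gene Gm36532. Raet1e (8.25 and 7.61), Gas7 (7.77 and 4.3), Cabin1 (7.77 and 3.62) and Efhd2 (7.67 and 5.73) completed the first 10. In all 10 the oxLDL KO value was the lower. They were chosen by their height in oxLDL WT, so this is no comparison of the libraries.

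Tall peaks without an oxLDL KO counterpart were found in Rab20 (8.19, chr8:11463975-11464272), a gene of phagosome maturation, in Tmcc2 (8.19) and in the semaphorin receptor gene Plxnb2 (7.77, chr15:89177422-89177676). The next were in the Toll-like receptor gene Tlr6 (7.56, chr5:64961017-64961316), in Ece1, which encodes endothelin-converting enzyme (7.56), and in Rbm47 (7.14), Emilin2 (7.14), Snx10 (7.09), Pla2g10 (6.93) and Myoz1 (6.93). The pileups ran from 32 to 38 fragments. The Emilin2 peak was overlapped in the untreated WT list, though not in oxLDL KO.

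The pathway lists taken as a whole held more in-gene peaks per Mb than all genes together. They were chosen with earlier results of these data known, so the difference is a description and no independent support. The background was 10.1% of genes with an in-gene peak and 4.13 per Mb over all genes, with a peak inside several genes counted for each. Over the 489 genes of the 14 pathway lists, 224 (45.8%, interval 41.4 to 50.2) held 525 in-gene peaks at 14.9 per Mb (13.6 to 16.2). Over 165 genes of 7 other cell type lists, 14 (8.48%, 5.12 to 13.7) held 24 at 0.365 per Mb (0.234 to 0.544). The pathway genes were also longer, with a median of 36 kb against 17.1 kb. Genes of the other cell type lists were longer still, with a median of 70 kb. Of the pathway peaks 25.3% (21.8 to 29.2) were overlapped by oxLDL KO, against 22.4% over all genes.

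**Figure D5:**
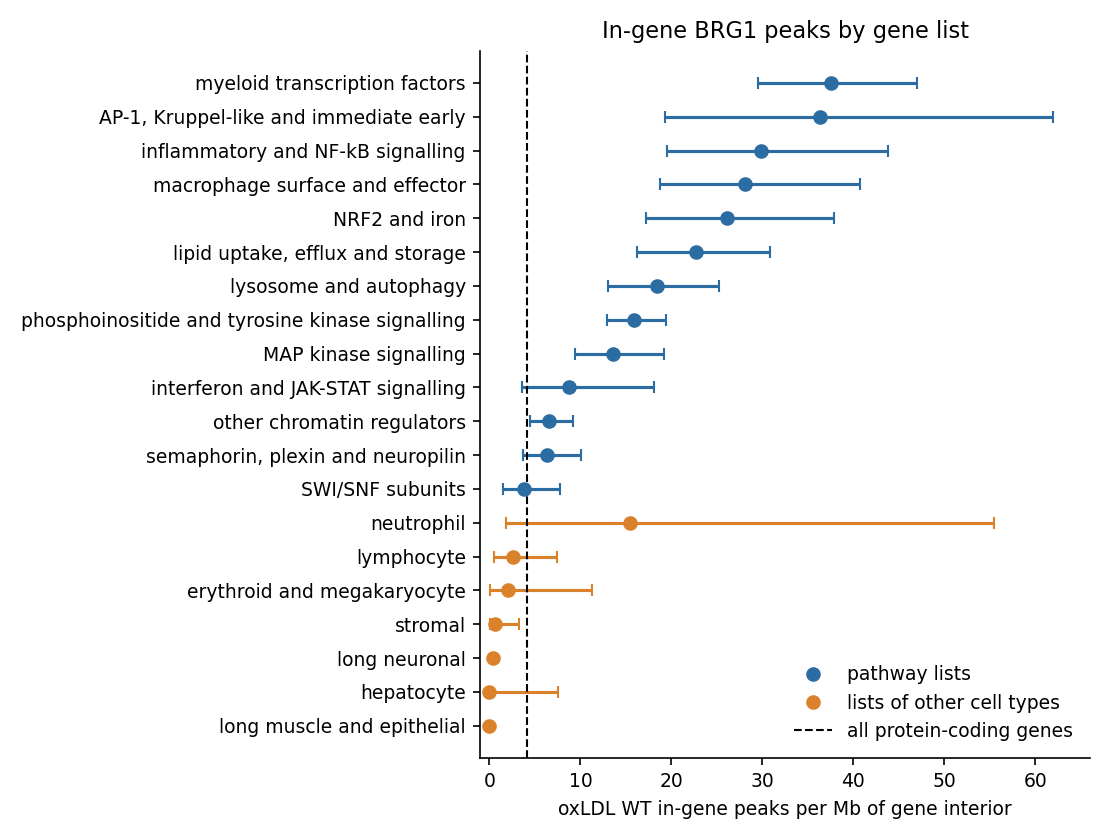
oxLDL WT in-gene peaks per Mb of gene interior for 13 of the 14 pathway lists (blue) and the 7 lists of other cell types (orange), with exact Poisson 95% intervals for 1 library. The dashed line is the value over all protein-coding genes, 4.13 per Mb. Myeloid transcription factor genes stand highest at 37.5 and the long muscle and epithelial list at 0. The lists were chosen with earlier results of these data known.

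Myeloid transcription factor genes stood highest, with 75 in-gene peaks in 19 of 30 genes at 37.5 per Mb (interval 29.5 to 47). Of these 26 were overlapped by oxLDL KO (34.7%, 24.9 to 45.9). After Fli1, the ETS repressor gene Etv6 and the RUNX factor gene Runx1 held 8 each, of which 3 each were overlapped. Runx1 values ran from 3.3 to 5.63, with the tallest, at summit 92675434 on chromosome 16, not overlapped. Etv6 ran from 2.94 to 4.83, with 4.83 and 4.07 in oxLDL KO at its tallest. The ETS gene Elf1 held 7 with 1 overlapped. Spi1, the gene of PU.1, held 3 (4.2, 3.78 and 4.58), and all 3 were overlapped. In Runx2, the RUNX factor gene of bone-forming cells, 0 of 5 were overlapped.

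Genes of lipid uptake, efflux and storage held 40 in-gene peaks in 18 of 42 genes, at 22.7 per Mb (interval 16.2 to 30.9), and 11 were overlapped. Lrp1, which encodes an endocytic receptor for lipoproteins and apoptotic cells, held 7, with 3.15, 2.46, 6.93, 7.14, 3.36, 2.97 and 4.38 along chromosome 10. The 3 overlapped were those of 6.93, 7.14 and 2.97, with oxLDL KO values of 4.75, 4.75 and 3.32. Lipa, the gene of lysosomal acid lipase, which frees cholesterol from lipoprotein esters, also held 7, from 2.68 to 4.62, of which 1 was overlapped (4.62 and 3.39 in oxLDL KO). Soat1, whose product esterifies cholesterol for storage in droplets, held 5 (2.88, 3.26, 3.64, 5.18 and 3.78). None of the 5 was overlapped, and Soat1 had no in-gene peak in oxLDL KO. Npc1, the gene of a lysosomal cholesterol exporter, held 4 with 1 overlapped (4.83 and 4.07).

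Inflammatory and NF-kB genes held 26 in-gene peaks in 15 of 41 genes (29.9 per Mb, interval 19.5 to 43.8), with 9 overlapped. Irak2, a kinase gene of interleukin-1 and Toll-like receptor signalling, held 4 and had 2 overlapped (3.34 and 3.62 in oxLDL KO, 5.21 and 5.43). Tnip1, which encodes an inhibitor of NF-kB, held 3 and had 2 overlapped (6.09 and 4.75, 6.51 and 6.11). Tlr6 held 3 (3.78, 7.56 and 4.2), with 0 overlapped, as had the p38 kinase gene Mapk14 with 3. AP-1, Kruppel-like and immediate early genes held 13 in 8 of 30 genes (36.3 per Mb, 19.3 to 62). In Mafg, a small Maf factor gene, 2 of 3 were overlapped, and in Klf6 0 of 3. Interferon and JAK-STAT genes held 7 in 6 of 29 genes (8.78 per Mb, 3.53 to 18.1), an interval that includes the value over all genes.

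Macrophage surface and effector genes held 28 in-gene peaks in 16 of 33 genes at 28.1 per Mb (interval 18.7 to 40.7), and 4 were overlapped (14.3%, 5.7 to 31.5). Itgb2, the gene of the leukocyte integrin beta chain CD18, held 5, with 4.41, 2.94, 3.34, 3.99 and 3.07, and only the first was overlapped (6.11 in oxLDL KO). Lysosome and autophagy genes held 38 in 14 of 38 genes (18.4 per Mb, 13 to 25.2), 7 of them overlapped. Tfeb, a master regulator gene of lysosome formation, held 5 with 2 overlapped (4.41 and 3.85, 5.63 and 4.07), and Fnip2, a folliculin partner gene, 5 with 1. Ctsb, the gene of cathepsin B, held 4, and the tallest (6.93) was the overlapped one (3.39).

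Signalling genes were long and often held several. Phosphoinositide and tyrosine kinase genes had in-gene peaks in 32 of 46, 95 in all at 15.9 per Mb (12.9 to 19.4), with 21 overlapped. Pik3ap1, which encodes the phosphoinositide 3-kinase adaptor BCAP, held 8 from 2.66 to 4.83 with 0 overlapped, although 3 in-gene oxLDL KO peaks lay elsewhere in the gene. Inpp5d, the gene of the lipid phosphatase SHIP1, held 7 with 2 overlapped and 6 in-gene oxLDL KO peaks. MAP kinase genes had 33 in 16 of 35 genes (13.6 per Mb, 9.39 to 19.2), with 6 overlapped.

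Genes of the NRF2 response and of iron handling held 27 in-gene peaks in 16 of 32 genes at 26.1 per Mb (interval 17.2 to 37.9), and 0 of the 27 were overlapped. A count of 0 allows a share of up to 11.1% at 3 counts of the total, and the Wilson interval reaches 12.5%. At the in-gene shares of their fold enrichment quintiles, 5.13 would be overlapped. The peaks of a gene are not independent, and 12 of the 27 lay in 2 genes. Bach2, a repressor gene of the same motif as NRF2, held 7 (2.61 to 4.41), and Slc7a11, which encodes the cystine transporter xCT, held 5 (2.88, 2.94, 3.78, 4.2 and 4.17). Txnrd1, the thioredoxin reductase gene, held 2 and Nfe2l2, which encodes NRF2, 1 of 5.88. The oxLDL KO list had 3 in-gene peaks in these genes, at other positions of Nfe2l2, Gpx4 and Bach1. The list was among 14 pathway lists, and lists were chosen with earlier results known.

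Other chromatin regulator genes had 16 of 32 in-gene peaks overlapped (50%, interval 33.6 to 66.4). Of these, 7 were in Dnmt3a, where peaks that share an oxLDL KO peak are each counted. The list held 6.52 per Mb (4.46 to 9.21). The SWI/SNF subunit genes held 7 in 6 of 28 genes at 3.79 per Mb (1.52 to 7.8), which includes the value over all genes, and Smarca4 held 0. Semaphorin, plexin and neuropilin genes held 17 in 7 of 18 (6.28 per Mb, 3.66 to 10.1), an interval that also includes that value. Among them Nrp2, a semaphorin co-receptor gene, held 3, beside 6 in-gene peaks of oxLDL KO, with 1 overlap.

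By share of genes the lists of other cell types lay near the 10.1% of all genes (8.48%, 5.12 to 13.7). The 10.1% is not a like share, since the median length was 70 kb in these lists and 17.1 kb over all genes. In genes of 30 to 100 kb as a class the share was 17.4%. A share at like length was not computed for these lists. The long neuronal list takes up 49.5 of the 65.7 Mb of interior in the lists of other cell types. Genes of 300 kb and over held 1.05 per Mb as a class. Density was also low in long muscle and epithelial genes (0 in 12.3 Mb, upper limit 0.301 per Mb) and stromal genes (0.593 per Mb, 0.015 to 3.3). The intervals of the hepatocyte, lymphocyte, neutrophil, and erythroid and megakaryocyte lists included the value over all genes. Long neuronal genes had 17 in 7 of 42 genes, at 0.344 per Mb (interval 0.2 to 0.55). Dlgap1, which encodes a postsynaptic scaffold protein, held 7 of these within 89.2 kb of its 852 kb, with 4.2, 3.55, 5.88, 4.2, 4.41, 3.36 and 3.15. Of them 3 were overlapped, with oxLDL KO values of 4.53, 3.62 and 4.53. Long muscle and epithelial genes (24) and hepatocyte genes (20) held 0, which allows a share of genes of up to 12.5% and 15% at 3 counts of the total (Wilson upper limits 13.8% and 16.1%). Lymphocyte genes held 3 in 3 of 19 genes, neutrophil genes 2 in 2 of 20 (15.4 per Mb, 1.86 to 55.5), and the stromal list and the erythroid and megakaryocyte list 1 each. The part of other cells in these peaks was not tested.

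Few in-gene peaks were listed without oxLDL. An untreated WT peak overlapped 52 of the 3878 (1.34%), against 1.81% of all oxLDL WT peaks of any width. An untreated KO peak overlapped 23 (0.593%), against 0.989%. The 2 sets shared 1 peak, in Smo, which lay in high background (76.3 fragments), and gave 74 peaks in all. Of these 74, 49 (66.2%, interval 54.9 to 76) were also overlapped in oxLDL KO, against 21.6% (20.3 to 22.9) of the other 3804. Their median fold enrichment was higher, 4.59 against 3.65. They included peaks in Spi1, Plaur (the urokinase receptor gene), Ncf4 (an NADPH oxidase subunit gene), Acsl3 (an acyl-CoA synthetase gene) and Havcr2, and 2 each in Cdk6 and Pxn. From the other side, oxLDL WT peaks overlapped 66 of the 85 in-gene peaks of the WT list and 26 of the 37 of the KO list. Most in-gene peaks listed without oxLDL were thus listed with it. The shares over all peaks of the untreated lists were not computed, so nothing particular to in-gene peaks is read from these counts. The untreated lists are short, with 237 and 139 peaks, and differences in list length cannot be told apart from the treatment with 1 library per group.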

How the data were processed

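Chromatin was digested with an enzymatic kit and sequenced as paired ends, per the labels' protocols. Tools listed in the submitters' processing notes are MACS3, Bowtie2, Trimmomatic 0.33 and bcl2fastq 2.17, with mm10 as the build. No source read here says if the input was used in peak calling, and its library was not analysed here. The authors deposited 1 peak list per library, with fold enrichment (a ratio), −log10 p and −log10 q, a score equal to the whole part of 10 times −log10 q, and the summit offset. The lowest −log10 q was 1.01 in both oxLDL lists.

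Pileup and background were solved from the deposited fold enrichment, taken as (pileup + 1)/(background + 1), and the Poisson −log10 p. The pileup came out whole within 2% of the step for 99.99% of oxLDL WT and 99.96% of oxLDL KO peaks. Genes came from RefSeq on GRCm38.p6 (21900 protein-coding genes, 20665 on chromosomes 1 to 19), without exons or introns, so these were not told apart. Starts and strand came from a RefSeq promoter table that is not complete. Overlap meant at least 1 bp. Scripts ran in Python 3.11.15 with scipy 1.17.1 and were tested on simulated data. The result of 1 pathway list is not reported here. Of the list symbols, Eys and Ighm did not match.

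The rule for named genes took the 15 genes with the most in-gene peaks, the 10 densest with at least 3, the 10 tallest peaks with and the 10 without overlap, up to 4 genes per list and the 5 longest genes without a peak. Other genes (Spi1, Runx2, and those named for a nested gene, the untreated lists or the printed windows) were chosen after their values were seen. Peaks, gene lists and tests were chosen with earlier results of these data known. Alternatives covered the q limit, the margin from gene ends, the width limit, the overlap rule, high background, merging of near peaks and peaks in several genes.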

Additional observations from a re-analysis of the deposited data

How the results depend on the processing

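Of 55 alternatives over 11 results, 33 left the value within its counting interval, or a count within 1.5 times, 20 moved it and 2 reversed it. With a −log10 q of at least 5 in both lists, there were 909 in-gene peaks in 733 genes, and 144 genes held several. At this limit 14.6% of peaks were overlapped, 22% of genes were shared and 12.3% had a gene-end peak. The shares over all peaks and over all genes were not computed at this limit, so these shares cannot be set against the backgrounds given above. The odds ratio was then 0.829 against gene ends, 0.833 against intergenic peaks and 0.786 at internal starts against elsewhere in genes, the last 2 reversed, and the density ratio at internal starts was 10.9. With a margin of 5 kb there were 2576 in-gene peaks in 1377 genes, 20.8% overlapped, an odds ratio against intergenic peaks of 1.09, a density ratio of 4.85 between genes of 30 to 100 kb and of 300 kb and over (5.48 as reported), and 51.1% of genes with a gene-end peak. Under 500 bp, 17.8% of peaks were overlapped and 38.3% of genes shared. A reciprocal overlap of 50% gave 14.1%, and summits at most 100 bp apart gave 12.4% and an odds ratio against gene ends of 0.679. Within 500 bp of an internal start the density ratio was 17.1. The cause of these changes was not tested, beyond the fewer peaks kept. The 7 alternatives on internal starts were chosen after seeing the data. The overlap rules do not enter the sharing of genes. No paired analysis was possible because there was 1 library per group. Depth limits all shares: a median peak rested on 17 fragments, and peaks near the caller's limit in either list cannot be told from unlisted ones.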

Other observations

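In-gene peaks were found on all 19 autosomes, from 103 on chromosome 18 to 346 on chromosome 2. Per Mb of gene interior, chromosomes 19 (5.88) and 11 (5.85) stood highest and chromosomes 16 (3.17) and 18 (3.23) lowest. The share overlapped by oxLDL KO ran from 19.4% on chromosome 3 to 27.2% on chromosome 18. Runs of in-gene peaks whose nearest gene end is that of another gene included 6 in Srgap2 beside Fam72a, 5 in Aopep beside Fancc, 5 in Runx2 beside Supt3, 4 in Synj2 beside Serac1 and 4 in Mrtfa, the gene of an actin-regulated coactivator of serum response factor, beside Sgsm3. In Acoxl, 2 lay nearest to Bcl2l11, the gene of the cell death protein BIM.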
